A study of Mus musculus with 12 samples.

Results

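The genes described here are 10 mouse genes that earlier work has linked to the FOXO transcription factors: Sesn1, Sesn3, Ypel3, Foxo1, Foxo3, Pik3ip1, Btg1, Txnip, Ccng2 and Bcl6. They are listed together as growth restraint genes, a name that need not hold for each of them. They were taken by symbol from the 19057 genes that a probe of the array names alone, and the brightest probe, by mean log2 signal over the arrays, stood for each gene. Sesn1 and Ypel3 were put on the list because they were low with KLA and higher with KLA plus hBD3, so these differences are given for them as a description and without a test. The link to FOXO comes from earlier work and was not measured on these arrays.

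The arrays (Illumina MouseWG-6 v2.0 BeadChips) measured total RNA of bone marrow-derived macrophages (BMDM) of Balb/c mice, grown from marrow in 20 ng/ml of the growth factor M-CSF and kept without it before treatment. Cells of each group were then cultured for 6 h, with 3 arrays per group: KLA plus hBD3, KLA alone (50 ng/ml), hBD3 alone, and untreated. KLA (Kdo2-lipid A) is the chemically defined, Toll-like receptor 4-activating core of lipopolysaccharide, and human beta-defensin 3 (hBD3) is a cationic antimicrobial peptide of epithelia. The comparisons asked how these genes responded to KLA and what the peptide did in its presence and absence.

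For hBD3 alone the labels state 5 mg/ml, whereas the methods state its dose in micrograms, and the labels of KLA plus hBD3 carry no dose. KLA replicates 2 and 3 carry titles that contain the word HBD3, while their treatment label is KLA alone. The column headings of the signals before normalization name no hBD3 for these arrays. Differences of the genes detected in all arrays, by their brightest probe, and the counts of the gene lists are therefore also given with KLA replicate 1 as the sole KLA array, an alternative in which the spread comes from the other groups.

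FOXO proteins are forkhead transcription factors that stay in the nucleus while insulin and growth factor signalling is low. When PI3K and AKT are active, AKT phosphorylates FOXO proteins and they are held in the cytoplasm, so that their target genes are less transcribed. In immune cells FOXO proteins are known for keeping lymphocytes quiescent, and in macrophages for modulating responses through Toll-like receptors.

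The promoters of the genes in which the FOXO recognition core GTAAACA was found are shown first, since the core is the sequence by which FOXO proteins read DNA. RefSeq promoters (assembly GRCm38.p6, 250 bases before to 50 bases after the start) were held for all 10 genes, as 12 promoters in all. GTAAACA, searched on both strands, was in a promoter of 4 of the 10 genes (Sesn1, Ypel3, Txnip and Btg1), whereas it was in a promoter of 4.05% of 27025 genes and in 3.65% of 32851 promoters. The promoters lie at chr10:41810324-41810623 (Sesn1, the more upstream of its 2 promoters), chr7:126776713-126777012 (Ypel3), chr3:96557707-96558006 (Txnip) and chr10:96616751-96617050 (Btg1), and all 4 genes are on the plus strand. Each is printed 5′ to 3′ on that strand, and the capitals mark the core, which reads TGTTTAC where it lies on the opposite strand.
Sesn1: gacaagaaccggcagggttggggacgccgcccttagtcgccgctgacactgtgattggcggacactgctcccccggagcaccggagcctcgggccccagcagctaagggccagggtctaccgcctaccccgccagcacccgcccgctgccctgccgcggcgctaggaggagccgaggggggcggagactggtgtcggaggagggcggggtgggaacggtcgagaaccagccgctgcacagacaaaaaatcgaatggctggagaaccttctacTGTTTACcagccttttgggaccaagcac
Ypel3: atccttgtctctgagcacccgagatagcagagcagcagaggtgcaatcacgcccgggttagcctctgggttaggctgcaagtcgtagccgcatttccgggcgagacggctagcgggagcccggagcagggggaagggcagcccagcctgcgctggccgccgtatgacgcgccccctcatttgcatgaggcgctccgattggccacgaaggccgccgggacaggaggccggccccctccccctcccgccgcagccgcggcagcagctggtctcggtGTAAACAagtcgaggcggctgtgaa
Txnip: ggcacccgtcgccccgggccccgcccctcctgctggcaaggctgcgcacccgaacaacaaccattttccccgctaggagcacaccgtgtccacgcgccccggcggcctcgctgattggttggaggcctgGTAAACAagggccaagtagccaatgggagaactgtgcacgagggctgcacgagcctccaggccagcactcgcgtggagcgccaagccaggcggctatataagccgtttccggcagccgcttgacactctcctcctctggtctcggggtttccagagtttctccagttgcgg
Btg1: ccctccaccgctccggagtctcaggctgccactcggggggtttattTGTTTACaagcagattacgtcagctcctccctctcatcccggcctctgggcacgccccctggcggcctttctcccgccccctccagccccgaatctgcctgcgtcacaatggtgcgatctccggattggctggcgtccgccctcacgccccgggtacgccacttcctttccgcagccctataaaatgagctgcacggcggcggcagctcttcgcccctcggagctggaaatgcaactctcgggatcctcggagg
The core began 22 bases after the start in Sesn1 and 25 bases after it in Ypel3, and 121 bases before the start in Txnip and 204 bases before it in Btg1. It was absent from the second Sesn1 promoter. The insulin response element CAAAACA ends in the same letters AAACA as the core and differs from it before them. It was in a promoter of 1 of the 10 genes (Ccng2), beside 7.2% of all genes and 6.28% of all promoters. The E-box CACGTG, a recognition sequence of basic helix-loop-helix factors, was in a promoter of 1 of the 10 genes (Bcl6), beside 8.09% of all genes and 7.15% of all promoters. The median GC content was 63.7% in the 12 promoters and 52.7% in all promoters. A match of letters is not a measured binding site.

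With detection set at a p-value under 0.01 against the negative control beads, 7 of the 10 genes had a group with every array detected. Sesn1, Ypel3, Bcl6, Txnip, Btg1, Foxo1 and Foxo3 were detected in all 12 arrays, whereas Pik3ip1, Sesn3 and Ccng2 were near background. The plot of signals by array shows that the group means of Sesn1, Ypel3, Bcl6, Txnip and Foxo1 had the same order at the low end, with KLA lowest and KLA plus hBD3 next. Lower signal in a culture could mean fewer cells that express a gene or less RNA per cell, which these arrays cannot tell apart.

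**Figure D1:**
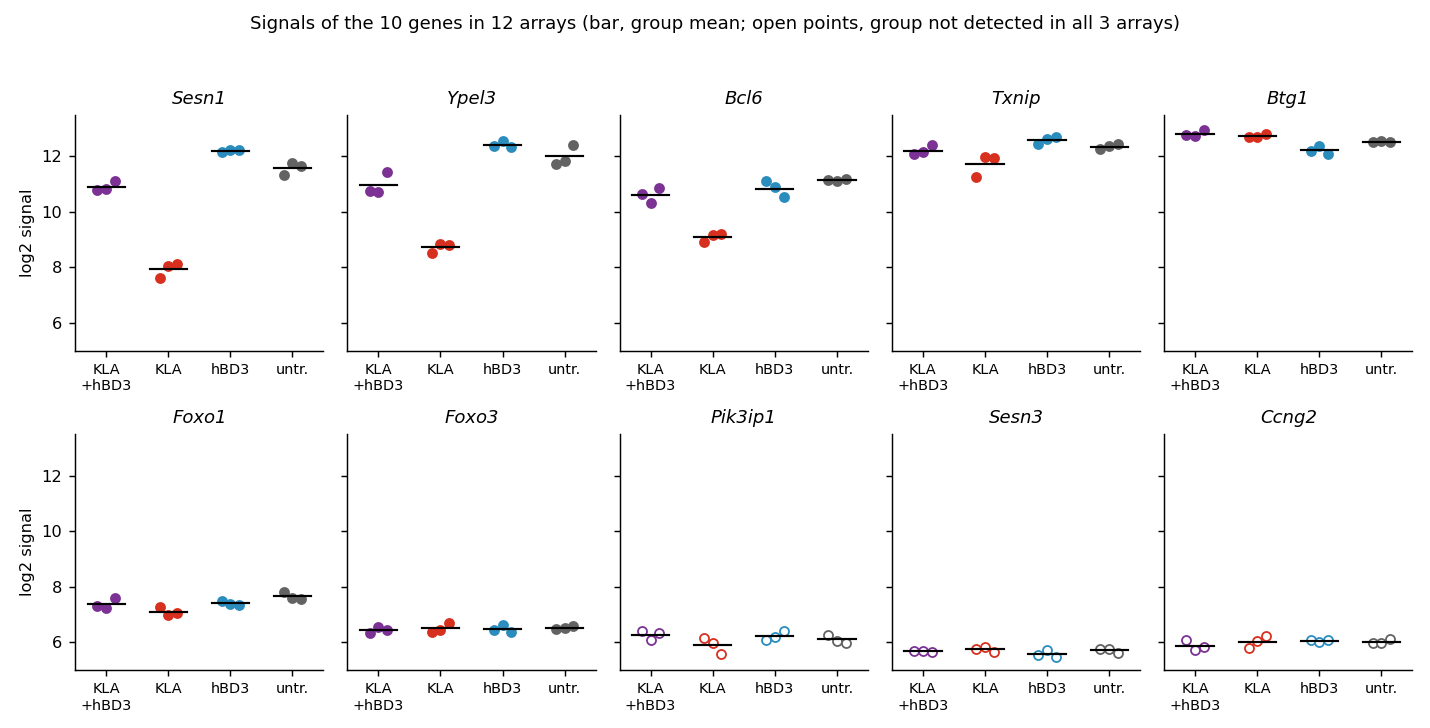
Normalized log2 signal (y axis) of the 10 genes in each of the 12 arrays, by group (x axis: KLA plus hBD3, KLA, hBD3, untreated). Points are arrays and bars group means, and open points mark groups in which the probe was not detected in all 3 arrays. The KLA arrays of Sesn1 lie between 7.63 and 8.12, below every array of the other groups.

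Sesn1 encodes sestrin 1, a stress protein that binds the GATOR2 complex and so restrains the growth kinase mTORC1. The gene (Entrez Gene 140742) lies at chr10:41810574-41908436 (GRCm38.p6). Its log2 signals were 10.79, 10.81 and 11.10 in KLA plus hBD3 arrays, 7.63, 8.05 and 8.12 in KLA arrays, 12.14, 12.22 and 12.23 in hBD3 arrays, and 11.31, 11.76 and 11.66 in untreated arrays. By this brightest probe the 4 groups did not overlap, and their order from high to low was hBD3, untreated, KLA plus hBD3 and KLA. On the linear scale the means were 1922 in KLA plus hBD3, 247.3 in KLA, 4704 in hBD3 and 3081 in untreated cells. The KLA mean differed from the untreated mean by -3.64 on the log2 scale and was 12.5-fold lower. The mean of KLA plus hBD3 was 2.97 above that of KLA (7.82-fold) and differed from the untreated mean by -0.68. With KLA replicate 1 as the sole KLA array, the first 2 of these differences were -3.95 and 3.28. The comparison of hBD3 with untreated cells took no part in the choice of Sesn1. There the difference was 0.62 ± 0.15 (SE, limma, adjusted p = 0.269). All 3 hBD3 arrays lay above all 3 untreated arrays by this probe, but not by the other Sesn1 probes. Groups were apart in that comparison, in either direction, for 11.7% of all probes and 17.2% of detected probes. In KLA against untreated cells these shares were 27.7% and 52.6%, and in KLA plus hBD3 against KLA 20.8% and 42.3%. KLA plus hBD3 against untreated cells gave 21.7% and 37.2%. The same shares stand beside each separation of groups given for the other genes below.

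Ypel3 encodes a small zinc-binding protein of the Yippee family, known in human cells as a p53 target that arrests growth. The gene (Entrez Gene 66090) lies at chr7:126776963-126780510. Its log2 signals were 10.76, 10.73 and 11.43 in KLA plus hBD3 arrays, 8.50, 8.83 and 8.82 in KLA arrays, 12.39, 12.55 and 12.34 in hBD3 arrays, and 11.73, 11.84 and 12.43 in untreated arrays. KLA and KLA plus hBD3 were each apart from every other group, while hBD3 and untreated overlapped through the third untreated array. The KLA mean differed from the untreated mean by -3.28 (9.72-fold lower), and the mean of KLA plus hBD3 was 2.25 above that of KLA (4.77-fold). KLA plus hBD3 differed from untreated cells by -1.03 on the log2 scale and was 2.04-fold lower. The first 2 differences were -3.50 and 2.47 with KLA replicate 1 as the sole KLA array. The test of hBD3 against untreated cells gave 0.43 ± 0.21 (SE, limma, adjusted p = 0.709), and its 95% interval ran from -0.02 to 0.87.

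Bcl6 was the gene outside the choice of Sesn1 and Ypel3 that changed most in the test of KLA against untreated cells. It encodes a zinc-finger repressor that governs germinal centre B cells and, in mouse macrophages, holds down inflammatory genes. The gene (Entrez Gene 12053) lies at chr16:23965050-23988866. Its log2 signals were 10.64, 10.32 and 10.88 in KLA plus hBD3 arrays, 8.90, 9.16 and 9.20 in KLA arrays, 11.10, 10.90 and 10.52 in hBD3 arrays, and 11.15, 11.11 and 11.19 in untreated arrays. Every KLA array lay below every array of the other 3 groups, and hBD3 overlapped KLA plus hBD3. Among detected probes 52.6% were apart in KLA against untreated cells and 42.3% in KLA plus hBD3 against KLA, in either direction. In KLA against untreated cells Bcl6 fell by 2.06 on the log2 scale (SE 0.16, limma, adjusted p = 2.60e-06), and was 4.18-fold lower. It was higher in KLA plus hBD3 than in KLA by 1.53 ± 0.16 (2.88-fold, limma, adjusted p = 9.21e-05). These differences were -2.25 and 1.71 with KLA replicate 1 as the sole KLA array, and both kept their calls.

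In the test of hBD3 against untreated cells Bcl6 differed by -0.30, with an adjusted p of 0.733 in limma. The effect of hBD3 in the presence of KLA minus its effect without KLA (the interaction) was 1.83 ± 0.22 for Bcl6 (SE, limma, adjusted p = 0.000948), and 2.02 with KLA replicate 1 as the sole KLA array. KLA plus hBD3 against untreated cells gave -0.54 for Bcl6, with an adjusted p of 0.0906 and a 95% interval from -0.88 to -0.19. Bcl6 was read by 1 probe, so no other probe bears on these values.

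Txnip encodes an arrestin-fold protein that binds thioredoxin and limits glucose uptake. The log2 signals of Txnip were 12.09, 12.15 and 12.40 in KLA plus hBD3 arrays, 11.26, 11.97 and 11.93 in KLA arrays, 12.46, 12.63 and 12.71 in hBD3 arrays, and 12.26, 12.38 and 12.43 in untreated arrays. KLA arrays were lowest without overlap, and the first KLA array lay well below the other 2. In KLA against untreated cells Txnip fell by 0.64 on the log2 scale (SE 0.16, limma, adjusted p = 0.0188). That call was lost with centring of the signals before normalization on probes detected in all arrays (-0.18, adjusted p = 0.398), without untreated replicate 2 (adjusted p = 0.0569), without untreated replicate 3 (0.0669), and with the 2 groups compared fitted alone (0.0709). KLA plus hBD3 against KLA gave 0.49 ± 0.16 for Txnip with an adjusted p of 0.113. With KLA replicate 1 as the sole KLA array, the 2 differences were -1.09 and 0.95, both called (adjusted p = 0.000682 and 0.00406 in limma), and without that array they were -0.41 and 0.27 (adjusted p = 0.0309 and 0.265). The test of hBD3 against untreated cells gave 0.25, with a 95% interval from -0.11 to 0.60 (limma, adjusted p = 0.7995).

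Foxo1 and Foxo3 encode the FOXO factors themselves. The log2 signals of Foxo1 were 7.30, 7.23 and 7.57 in KLA plus hBD3 arrays, 7.25, 6.97 and 7.03 in KLA arrays, 7.49, 7.36 and 7.33 in hBD3 arrays, and 7.80, 7.58 and 7.55 in untreated arrays. KLA overlapped KLA plus hBD3 and was apart from hBD3 and from untreated cells. In KLA against untreated cells Foxo1 fell by 0.56 on the log2 scale (SE 0.11, limma, adjusted p = 0.00344), a 1.48-fold difference. With KLA replicate 1 as the sole KLA array the difference was -0.40 and the call was lost (adjusted p = 0.164). KLA plus hBD3 against KLA gave 0.29 for Foxo1 with an adjusted p of 0.192, and the interaction gave 0.53 with an adjusted p of 0.103, against 0.12 and 0.37 with KLA replicate 1 as the sole KLA array. The test of hBD3 against untreated cells gave -0.25 for Foxo1 (limma, adjusted p = 0.669), with a 95% interval from -0.49 to -0.01. That difference is subtracted in the interaction.

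Foxo3 lay between 6.34 and 6.69 in all 12 arrays, close to the lowest signal at which a probe was detected in its array (6.03 to 6.34). All 4 groups of Foxo3 overlapped. The difference was -0.03 in KLA against untreated cells, with a 95% interval from -0.24 to 0.19 (limma, adjusted p = 0.929), and -0.05 in KLA plus hBD3 against KLA, with an interval from -0.27 to 0.16. With KLA replicate 1 as the sole KLA array they were -0.16 and 0.08. The signs of these differences turned under several alternatives, and with median centring of the signals before normalization Foxo3 was called lower in KLA than in untreated cells (-0.47, limma, adjusted p = 0.00911).

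Btg1 encodes an antiproliferative protein that recruits the CCR4-NOT deadenylase to messenger RNA, and it did not share the order of Sesn1, Ypel3 and Bcl6. The log2 signals of Btg1 were 12.78, 12.73 and 12.95 in KLA plus hBD3 arrays, 12.70, 12.71 and 12.82 in KLA arrays, 12.19, 12.36 and 12.09 in hBD3 arrays, and 12.53, 12.55 and 12.51 in untreated arrays. Both groups given KLA lay above untreated cells and hBD3 lay below them, without overlap. Differences from untreated cells were 0.29 in KLA plus hBD3 (adjusted p = 0.0827), 0.22 in KLA (adjusted p = 0.129) and -0.31 in hBD3 (adjusted p = 0.377), and limma called 0 of these 3, all 3 with an unadjusted p under 0.05. The KLA difference of Btg1 was 0.17 with KLA replicate 1 as the sole KLA array, and it was called with centring on probes detected in all arrays (0.75, adjusted p = 0.000570). A second Btg1 probe gave -0.12 in KLA against untreated cells, the opposite sign, so the direction of Btg1 was not settled between probes.

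Pik3ip1, Ccng2 and Sesn3 were read at or near background and are given as levels. Pik3ip1 encodes a membrane protein that inhibits the catalytic subunit of PI3K, and its probe was detected in 2 of 3 KLA plus hBD3 arrays, 0 of 3 KLA arrays, 2 of 3 hBD3 arrays and 1 of 3 untreated arrays. The log2 signals of Pik3ip1 ranged from 6.08 to 6.41 in KLA plus hBD3, from 5.58 to 6.13 in KLA, from 6.07 to 6.39 in hBD3 and from 5.97 to 6.25 in untreated cells, and all groups overlapped their neighbours. Ccng2, which encodes an atypical cyclin that restrains the cell cycle, ranged from 5.70 to 6.20 and was detected in 1 array, of untreated cells. Sesn3, the third sestrin gene and a FOXO target in other mouse cells, was not detected in any array by either of its 2 probes and ranged from 5.47 to 5.83 by the brighter one. No change of Sesn3 or Ccng2 could be measured at these signals.

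Counts were read over the 8 genes not chosen on their values, with calls at a limma adjusted p under 0.05 over all 45281 probes. KLA against untreated cells called 3 of the 8 (Bcl6, Txnip and Foxo1), all lower, where 14.8% of all probes were called and 8% were called lower. Median centring added Foxo3, also lower, whereas centring on probes detected in all arrays called 2 lower (Bcl6 and Foxo1) and 3 higher (Btg1, Ccng2 and Sesn3), of which Ccng2 and Sesn3 were near background. Among detected probes, to which 5 of the 8 genes belong, 42.1% were called and 23.1% were called lower. KLA plus hBD3 against KLA called 1 of 8 (Bcl6, higher), beside 6.99% of all probes and 21.1% of detected probes. KLA plus hBD3 against untreated cells called 0 of 8 in limma, beside 4.39% of all probes, and 3 of 8 had an unadjusted p under 0.05, beside 15.5% of all probes. The interaction called 1 of 8 (Bcl6), beside 3.41% of all probes. In the test of hBD3 against untreated cells, counted over all 10 genes, limma called 0 of 10, beside 0.00442% of all probes, and 3 of 10 had an unadjusted p under 0.05, beside 7.31% of all probes. Shares with an unadjusted p under 0.05 were not taken among detected probes, so no excess is read from these counts. With the replicate number as a block 15 probes were called in hBD3 against untreated cells in place of 2, and the count over the 10 genes was again 0. The median log2 change over the genes counted was -0.11 in KLA against untreated cells, where it was 0.0049 over all probes and -0.06 over detected probes. In KLA plus hBD3 against KLA it was 0.18, beside -0.0031 and 0.02. The genes counted include Pik3ip1, Sesn3 and Ccng2, which were near background, so no shift of the set is read from these medians. With KLA replicate 1 as the sole KLA array, 2 of 8 were called in KLA against untreated cells, 2 of 8 in KLA plus hBD3 against KLA and 1 of 8 in the interaction. These comparisons share arrays and are not independent of each other.

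**Figure D2:**
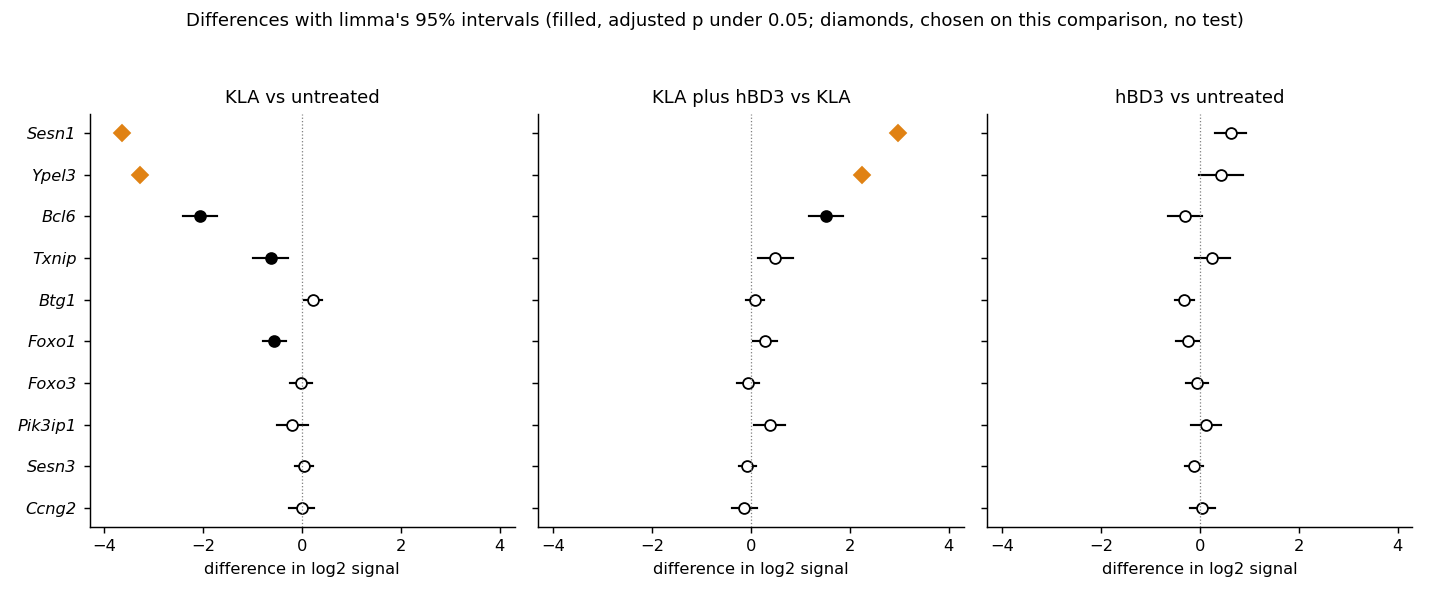
Differences in log2 signal (x axis) of the 10 genes (y axis) in 3 comparisons, with limma's 95% intervals as lines. Filled circles are called at an adjusted p under 0.05, open circles are not, and diamonds mark Sesn1 and Ypel3 in the comparisons on which they were chosen, for which no interval or test is given. Bcl6 is the sole gene with a filled circle in both left panels, at -2.06 and 1.53.

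Several of the genes were read by more than 1 probe. The second probes of Sesn1 and Txnip moved as the first did in KLA against untreated cells and in KLA plus hBD3 against KLA. The second Sesn1 probe differed by -3.12 in KLA against untreated cells and by 2.85 in KLA plus hBD3 against KLA, and the third by -1.16 and 1.03, although the third was detected in only 1 of 3 KLA arrays. In hBD3 against untreated cells these probes gave 0.58 and 0.33, and the groups overlapped by each. KLA plus hBD3 against untreated cells gave -0.27 and -0.13 by them, also with overlap, beside -0.68 by the first probe. The second Txnip probe gave -0.71 (limma, adjusted p = 0.00851) and 0.63 (adjusted p = 0.0325), so that both comparisons were called by this probe and the second of them was not called by the first. The second Ypel3 probe was near background and gave -0.30 and 0.13. The second Foxo1 probe was detected in 1 of the 12 arrays and gave -0.20 in KLA against untreated cells, with an adjusted p of 0.310.

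**Figure D3:**
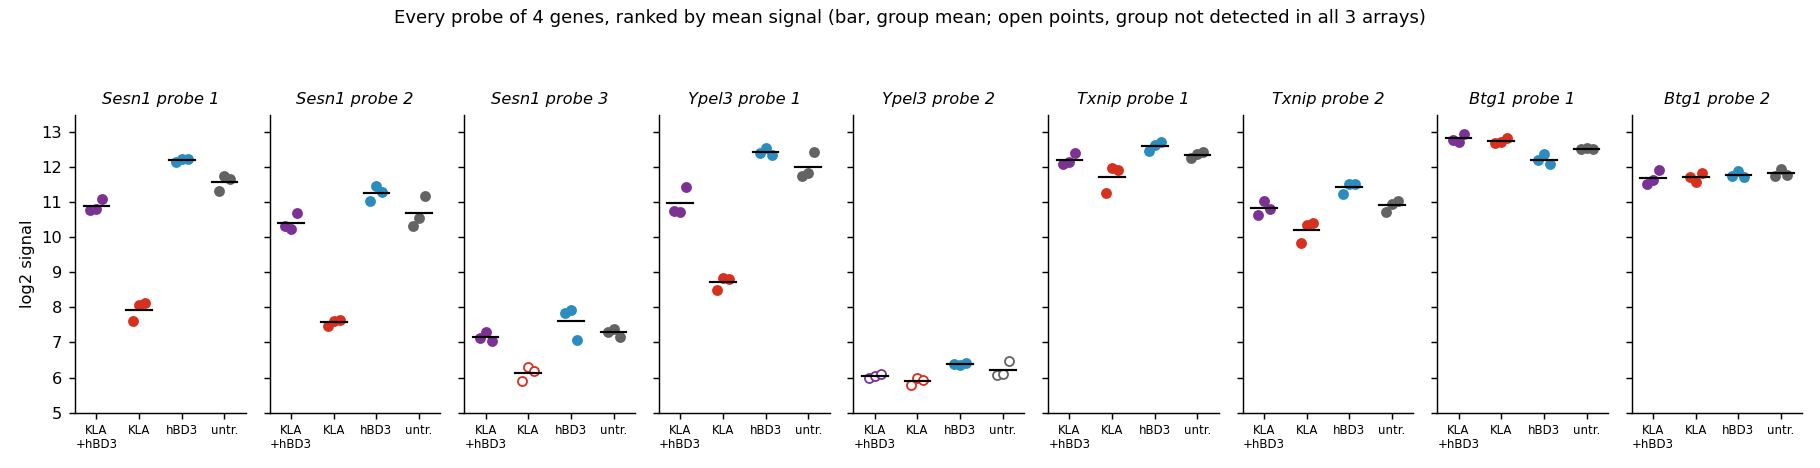
Normalized log2 signal (y axis) of every probe of Sesn1, Ypel3, Txnip and Btg1 in the 12 arrays, by group (x axis), with probes ranked by mean signal. Points are arrays, bars are group means and open points mark groups in which the probe was not detected in all 3 arrays. The first 2 Sesn1 probes share their order of groups at the low end, at KLA means of 7.93 and 7.57, while the second Btg1 probe is nearly level.

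The genes with the most similar profile were found by the root mean square difference of log2 signals over the 12 arrays, after each gene was centred on its own mean, among 8264 other genes detected in all arrays of a group. Nearest to Sesn1 were P2ry6, a nucleotide receptor (0.22), Zfp36l1, which promotes mRNA decay (0.27), Tmem86a (0.33) and St6gal1, a sialyltransferase (0.34). Nearest to Ypel3 were Tpcn1, an endolysosomal cation channel (0.20), Tmem86a (0.24), Apobec1, an RNA-editing enzyme (0.30), and P2ry6 (0.31). Sesn1 and Ypel3 differed from each other by 0.32 on this measure, and Bcl6 differed from Ypel3 by 0.74 and from Sesn1 by 0.92. Nearest to Txnip were Ldb1 (0.11), Sirpa (0.12), Plekha1 (0.13) and Zfp637 (0.13). The measure describes likeness over these arrays and carries no test.

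Of 19 relatives measured from the gene families of the 10 genes, 1 rose and 2 fell in KLA against untreated cells, and 3 rose and 3 fell with the replicate number as a block. Called in that comparison were 14.8% of all probes and 42.1% of detected probes. In KLA plus hBD3 against KLA the shares were 6.99% and 21.1%. The same shares stand beside the counts of the other gene lists below. Arrdc4, an arrestin relative of Txnip and like it a known target of the glucose-sensing Mondo factors, rose by 1.34 ± 0.10 (limma, adjusted p = 2.25e-06), whereas Txnip fell, and Arrdc4 was lower in KLA plus hBD3 than in KLA (-0.83 ± 0.10, adjusted p = 0.000278). Ypel2 was not detected in any KLA array and was at least 1.13-fold lower there (limma, adjusted p = 0.00655), a call lost with centring on probes detected in all arrays. A bound of this kind sets the untreated mean against the lowest signal detected in each KLA array, or the probe's own signal where that was higher. Tob2, of the Btg1 family, fell by 0.56 on the log2 scale (adjusted p = 0.0191), a call lost without KLA replicate 1, KLA replicate 3 or untreated replicate 1. Ypel5 differed by -0.14 with an adjusted p of 0.734, and Sesn2, the stress-inducible sestrin, by -0.24 with an adjusted p of 0.586. Ccng1, the other G-type cyclin, differed by -0.21 in KLA against untreated cells (limma, adjusted p = 0.252) and was higher in KLA plus hBD3 than in KLA (0.56 ± 0.10, adjusted p = 0.00480), a call lost with median centring, with centring on probes detected in all arrays and with KLA replicate 1 alone.

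Upstream of FOXO, 21 genes of insulin and PI3K-AKT signalling were measured, of which 4 rose and 5 fell in KLA against untreated cells, with a median change of -0.0039. Inpp5d, the phosphatase SHIP1 that degrades the lipid product of PI3K, fell by 2.57 on the log2 scale (SE 0.17, limma, adjusted p = 8.68e-07) and was higher in KLA plus hBD3 than in KLA by 1.83 ± 0.17 (adjusted p = 4.54e-05). Pik3r2, a regulatory subunit of PI3K, fell by 1.27 on the log2 scale, and it was 0.83 higher in KLA plus hBD3 than in KLA (limma, adjusted p = 0.0105), a call lost with median centring, with KLA replicate 1 alone and without KLA plus hBD3 replicate 3. The catalytic subunits Pik3cg and Pik3cb rose in KLA, by 1.00 and 0.88, and both calls were lost with median centring, that of Pik3cb (0.28 there) also with KLA replicate 1 alone. Inpp5d and Pik3r2 were each detected in 2 of 3 KLA arrays. Their KLA means of 6.34 were near the lowest signal detected in KLA arrays (6.19 to 6.34), so the sizes of their differences are uncertain. KLA plus hBD3 against KLA called 4 of the 21 higher and 1 lower.

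Downstream, on the pathway that sestrins restrain, 5 of 26 genes of mTORC1 and its regulators rose and 3 fell in KLA against untreated cells, and 8 rose and 4 fell with the replicate number as a block. Seh1l, a GATOR2 subunit that also belongs to the nuclear pore, rose by 1.66 ± 0.14 (limma, adjusted p = 5.99e-06), and Rictor, which belongs to mTORC2 and not to mTORC1, rose by 1.14 ± 0.11 (adjusted p = 1.94e-05), a call lost with median centring (0.53). Deptor, an inhibitory partner of mTOR, fell by 0.97 on the log2 scale, but was detected in 1 of 3 KLA arrays, so the size of its fall is uncertain. Castor1, the arginine sensor that inhibits GATOR2, was not detected in any KLA array and was at least 1.33-fold lower there (limma, adjusted p = 0.000152). The Castor1 call was lost with centring on probes detected in all arrays. In KLA plus hBD3 against KLA, 2 of the 26 were higher and 4 lower, with Seh1l at -1.19 and Rictor at -0.76, the Rictor call being lost with median centring.

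Among 15 genes of the FOXO family and its regulators, 3 rose and 2 fell in KLA against untreated cells. Mapk8, the JNK1 kinase that promotes nuclear FOXO, rose by 0.78 ± 0.11 (limma, adjusted p = 0.000236), a call lost with median centring. Usp7, a deubiquitinase that acts on FOXO proteins, rose by 0.67 ± 0.18 (adjusted p = 0.0270), a call lost with median centring, with KLA replicate 1 alone, and without KLA replicate 1 or 2 or untreated replicate 1 or 3. Stk4, a kinase that phosphorylates FOXO proteins, fell by 0.65 on the log2 scale, a call lost with centring on probes detected in all arrays and with KLA replicate 1 alone. Skp2, a ubiquitin ligase subunit that targets Foxo1, was not detected in any KLA array and was at least 1.07-fold lower there at an adjusted p of 0.0487 (log2 difference -0.38), and its sign turned with centring on probes detected in all arrays (0.11). The Skp2 call was also lost in 9 other alternatives, 8 of which left out 1 array.

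Of 38 other reported FOXO targets, 4 rose and 11 fell in KLA against untreated cells, and 6 were higher and 1 lower in KLA plus hBD3 than in KLA. The median change of the list was -0.13 in the first comparison and 0.11 in the second. Tsc22d3, the glucocorticoid-induced leucine zipper, fell by 2.53 on the log2 scale (SE 0.21, limma, adjusted p = 5.41e-06) and was higher in KLA plus hBD3 than in KLA by 1.45 ± 0.21 (adjusted p = 0.00112). Cdkn1a, the cell cycle inhibitor p21 that FOXO proteins and p53 induce, rose by 3.03 ± 0.26 (limma, adjusted p = 6.41e-06). The D-type cyclins, which FOXO proteins repress, went opposite ways: Ccnd2 rose by 3.23 ± 0.46 (limma, adjusted p = 0.000344) and Ccnd1 fell by 2.41 on the log2 scale (SE 0.43, adjusted p = 0.00207), a call lost with KLA replicate 1 alone. Ccnd1 was detected in 1 of 3 KLA arrays, so the size of its fall is uncertain. Ccnd2 was lower in KLA plus hBD3 than in KLA (-2.40, limma, adjusted p = 0.00622).

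Ypel3 and some of the sestrins are also known p53 targets. Of 19 p53 targets outside the 10 genes, Cdkn1a and Sesn2 among them, 5 rose and 3 fell in KLA against untreated cells. Plk2, a polo-like kinase, rose by 1.94 ± 0.16 (limma, adjusted p = 5.01e-06) and was lower in KLA plus hBD3 than in KLA (-1.65, adjusted p = 6.40e-05). Trp53inp1, which promotes p53 activity, fell by 1.55 on the log2 scale, and Ei24, an endoplasmic reticulum protein, fell by 1.17. Of 16 direct partners of the 10 proteins, 5 rose and 2 fell, with Bcor, a corepressor bound by Bcl6, at 1.09 ± 0.13 (limma, adjusted p = 9.25e-05) and the mitochondrial thioredoxin Txn2 at -0.42. The Bcor call was lost with median centring (0.43), and that of Txn2 with a trended and robust variance and without KLA replicate 1, KLA replicate 2 or untreated replicate 2. The autophagy receptor Sqstm1 gave 1.28 ± 0.34 (limma, adjusted p = 0.0241) and Mlxip, a Mondo factor, gave -0.59 (adjusted p = 0.0215), and both calls were lost without KLA replicate 1, KLA replicate 2 or untreated replicate 3. The Sqstm1 call was also lost with median centring and with a trended and robust variance, and the Mlxip call with KLA replicate 1 alone and without untreated replicate 1. In hBD3 against untreated cells limma called 0 of the 147 genes of these 7 lists, of which 21 had an unadjusted p under 0.05, beside 7.31% of all probes. That share was not taken among detected probes, to which most list genes belong, so no excess is read from it.

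**Figure D4:**
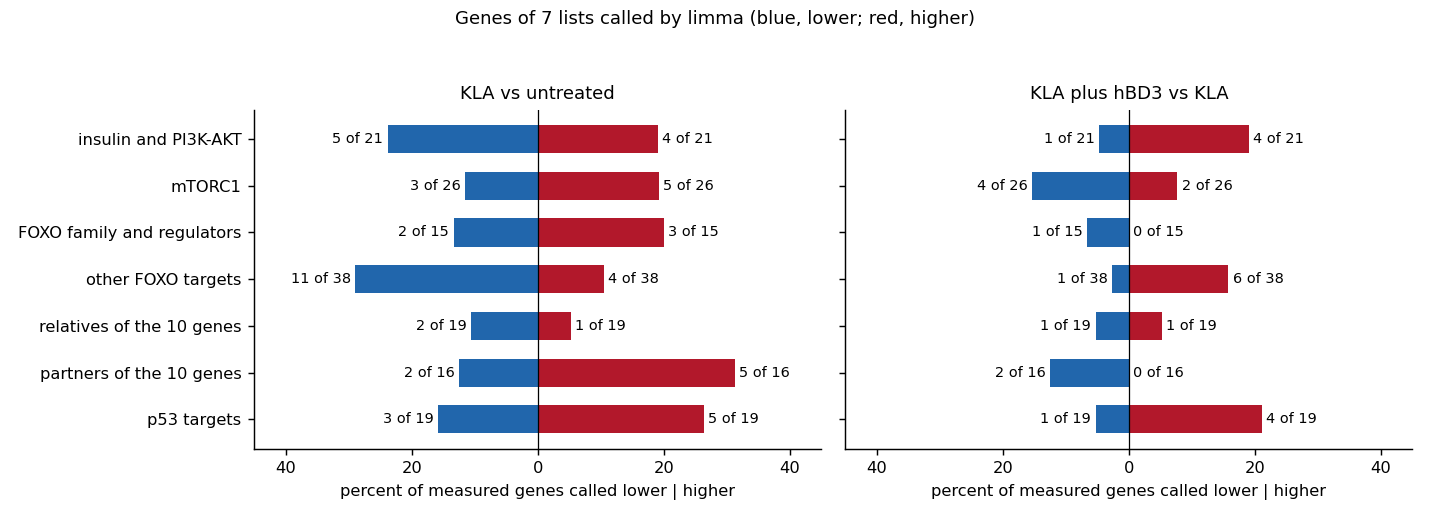
Percent of the measured genes of 7 lists (y axis) called lower (blue, left) or higher (red, right) by limma at an adjusted p under 0.05 (x axis), in KLA against untreated cells and in KLA plus hBD3 against KLA. Numbers beside the bars are genes called out of genes measured; other FOXO targets had 11 of 38 lower in the first comparison and 6 of 38 higher in the second. Across all probes 6.84% were called higher and 8% lower in the first comparison, and 3.5% higher and 3.48% lower in the second. Among detected probes 42.1% were called in the first, 23.1% being lower, and 21.1% in the second. Most list genes were detected: 17 of 21 for insulin and PI3K-AKT, 24 of 26 for mTORC1, 10 of 15 for the FOXO family. The other lists had 27 of 38 FOXO targets, 11 of 19 relatives, 14 of 16 partners and 16 of 19 p53 targets detected.

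With KLA replicate 1 as the sole KLA array, 3 of the 38 other FOXO targets rose and 9 fell against untreated cells, and 2 of the 21 insulin and PI3K-AKT genes rose and 4 fell. In the same alternative 3 rose and 3 fell among genes of mTORC1 and its regulators, 1 rose and 1 fell in the FOXO family and its regulators, 2 rose and 3 fell among relatives, 3 rose and 1 fell among partners, and 4 rose and 3 fell among p53 targets. All 26 list genes named by their change in KLA against untreated cells kept their sign there, and 21 kept their call, the exceptions being Pik3cb, Usp7, Stk4, Ccnd1 and Mlxip. In KLA plus hBD3 against KLA 14 of the 26 were called and 10 kept their call, the exceptions being Pik3r2, Deptor, Castor1 and Mapk8. Median centring, which shifted detected probes by a median of -0.54 in KLA against untreated cells, called 3 of the 38 higher and 14 lower. Centring on probes detected in all arrays, which shifted them by 0.17, called 19 higher and 9 lower. It also called 6 of 6 B cell markers and 8 of 8 T and NK cell markers higher, with 0 detected in all arrays of a group. Its higher calls thus took in background probes and cannot decide the balance of the list. Calls gained or lost under this centring by probes near background carry the same limit.

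Of the macrophage markers, 12 of 13 measured were detected, and their mean log2 signal per array was 10.52 to 10.73 in KLA plus hBD3, 10.04 to 10.22 in KLA, 10.55 to 10.78 in hBD3 and 10.51 to 10.78 in untreated cells. Single markers went both ways: of the 13, 2 were called higher and 6 lower in KLA than in untreated cells. In KLA plus hBD3 against KLA 5 were called higher and 1 lower. The lower mean of the markers in KLA thus moved with the lower Sesn1, Ypel3 and Bcl6, and its part in these differences was not tested. Markers of other cells were mostly undetected: 0 of 6 for B cells, 0 of 8 for T and NK cells, 1 of 9 for dendritic cells, 1 of 5 for erythroid cells, 2 of 10 for neutrophils and 5 of 11 for stroma. The mean of the neutrophil markers was 6.03 to 6.15 in KLA plus hBD3, 6.17 to 6.43 in KLA and 5.97 to 6.01 in untreated cells, and 2 of these markers were called higher in KLA than in untreated cells. The dendritic cell markers gave 5.86 to 5.94 in KLA plus hBD3, 6.04 to 6.19 in KLA and 5.86 to 5.97 in untreated cells, with 1 called higher in KLA than in untreated cells and 1 called lower in KLA plus hBD3 than in KLA. The erythroid markers gave 6.90 to 7.07 in KLA plus hBD3, 6.66 to 6.82 in KLA and 6.93 to 7.03 in untreated cells, with 1 called lower in KLA than in untreated cells. The part of these markers in the differences was not tested. The mean of the stromal markers ranged from 6.00 to 7.42 in hBD3 arrays and stayed between 5.95 and 6.19 in the other groups. Probes detected per array numbered 12543 to 14644 in KLA plus hBD3, 12363 to 13571 in KLA, 14353 to 14980 in hBD3 and 14610 to 15629 in untreated cells.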

How the data were processed

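The authors exported probe signals and detection p-values from the scanner software and quantile normalized the 12 arrays in R; the deposited values are normalized intensity on a linear scale, with a table of intensity before normalization and its detection p-values beside it. Versions of the authors' tools, including limma, which they used for testing, are not given in the sources used here. The study describes 3 biological replicates per group, from separate mice. Each of the 12 columns before normalization, quantile normalized here, equalled 1 sample of the normalized table for 100% of probes within 0.1%, and its heading gave the same group.

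Here log2 of the normalized intensity of all 45281 probes was fitted by group in limma 3.58.1 (R 4.3.3), with all 12 arrays, 8 residual and 3.66 prior degrees of freedom and two-sided tests. The p-values were adjusted by Benjamini-Hochberg over all probes of a comparison, and probes were called under 0.05. A gene was read from its brightest probe (highest mean log2 signal) among 34885 probes naming 1 gene; 34807 of their gene identifiers matched RefSeq, with 0 symbols changed. SE is that of limma. The number of arrays limits the precision. The fit was tested on simulated data. Same-numbered arrays deviated together in KLA against untreated cells (r 0.31 to 0.67 over 3 pairs) and in hBD3 against untreated cells (0.27 to 0.67), so the fit with the replicate number as a block is given beside results of these comparisons where it moved them by over 1.5 times.

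All 10 genes are named. From each gene list, the called genes with the 2 largest rises and 2 largest falls in KLA against untreated cells are named, if detected in all arrays of a group; relatives beyond these (Sesn2, Ypel5 and Ccng1) were chosen after their values were seen. Of 227 list entries, 18 had no probe of their own. The members and lists were chosen with earlier results of these data known. Alternatives were other scalings, the replicate number as a block, other variance settings, left-out arrays, KLA replicate 1 alone and means over detected probes.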

Additional observations from a re-analysis of the deposited data

Results flagged for a closer look

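Bcl6 was flagged because the effect of hBD3 differed with and without KLA. In the presence of KLA, hBD3 went with a higher Bcl6 signal (1.53 on the log2 scale), all 3 arrays lying above all 3 arrays of KLA alone. In either direction, 42.3% of detected probes had these groups apart. In the absence of KLA the difference was -0.30 and was not called (limma, adjusted p = 0.733, 95% interval from -0.65 to 0.04). All 3 hBD3 arrays lay below all 3 untreated arrays there, but narrowly (highest 11.104, lowest 11.108). Groups were apart, in either direction, for 17.2% of detected probes in that comparison. The difference between both effects, tested as the interaction in limma, was 1.83 (SE 0.22, adjusted p = 0.000948) and ran from 1.67 to 2.09 over 21 alternatives. Groups held 3 arrays, too few for the test for single outlying arrays.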

How the results depend on the processing

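Over 22 alternatives, 691 of 749 values of the 35 log2 changes kept their direction and their side of the threshold (for Sesn1 and Ypel3 where no test was given, stayed within 1 SD), 5 lost a call, 13 gained one, 24 turned their sign and 16 moved by more than 1 SD; the causes were not tested. Some alternatives could not move a log2 change. These were the block, other variance settings, detected probes only, the compared groups fitted alone, and an array left out of a group not compared. Only an adjusted p could change there, so part of the 691 was fixed in advance, as for Sesn1 and Ypel3 without a test. One alternative, without the replicate 3 arrays of KLA, hBD3 and untreated, was chosen after seeing the data.

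The count in KLA against untreated cells (3 of 8) ran from 2 to 3 with single arrays left out was 4 with median centring (Foxo3 added, -0.47) and was 5 with centring on probes detected in all arrays, where 3 were called higher, Btg1 (0.75) among them. The count in KLA plus hBD3 against KLA (1 of 8) was 2 with the replicate number as a block, with KLA replicate 1 alone and with means over detected probes, Txnip being the gene added (adjusted p = 0.0185, 0.00406 and 0.0202 in limma); it was 1 with each single array left out. The count in KLA plus hBD3 against untreated cells (0 of 8) was 3 with median centring (Foxo1 -0.85, Foxo3 -0.43 and Bcl6 -1.13), 5 with centring on detected probes, and 1 (Bcl6) with means over detected probes. With single arrays left out it was 0 to 1, with Bcl6 called without KLA plus hBD3 replicate 3 (adjusted p = 0.0465) or without hBD3 replicate 3 (0.0421). In both comparisons with KLA plus hBD3, 1 of 3 same-numbered pairs deviated together (r over 0.1), so the number was not taken to pair arrays there; over all groups 5 of 12 arrays correlated best with their own number in every other group. The block changed no other call of the 10 genes.

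Foxo3 turned its sign in KLA against untreated cells (0.241 with centring on detected probes, and -0.124 to 0.0418 with single arrays left out), in KLA plus hBD3 against KLA (0.0433 with median centring, 0.0797 with KLA replicate 1 alone, 0.0438 without the replicate 3 arrays, and -0.122 to 0.0438 with single arrays left out), in hBD3 against untreated cells (0.072 with centring on detected probes and 0.0255 without the replicate 3 arrays), in KLA plus hBD3 against untreated cells (0.207 with centring on detected probes) and in the interaction (-0.106 with centring on detected probes, and -0.0612 to 0.104 with single arrays left out). Btg1 turned with median centring in KLA plus hBD3 against KLA (-0.29) and against untreated cells (-0.24), and with centring on detected probes in KLA plus hBD3 against KLA (-0.36) and in the interaction (-0.12). Txnip turned with centring on detected probes in KLA plus hBD3 against untreated cells (0.0039) and in the interaction (-0.14), and lost its KLA call there (-0.18, adjusted p = 0.398).

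Across all probes, calls were higher for 46.1% in KLA against untreated cells, for 15% with median centring and for 93.3% with centring on detected probes, under which 37639 probes were called in place of 6717. Median centring shifted detected probes by a median of -0.56 in KLA plus hBD3 against untreated cells, -0.27 in hBD3 against untreated cells and 0.28 in the interaction. Median centring called 6180 probes in KLA plus hBD3 against untreated cells, where 1986 were called (978 without KLA plus hBD3 replicate 1, 888 without its replicate 2, 1201 without untreated replicate 3, 3065 with the block). It called 1216 in KLA plus hBD3 against KLA, where 3165 were called (1763 with KLA replicate 1 alone), and 425 in the interaction, where 1542 were called. A block for the BeadChip was not run, because the headings do not give it.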
